A study of Mus musculus with 6 samples.

Results

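The 10 genes described here encode the receptor-mediated endocytosis machinery of the renal proximal tubule: Lrp2, Cubn, Amn, Dab2, Clcn5, Ocrl, Lrpap1, Fcgrt, Rab11a and Myo6. They were taken by symbol from tables of 24346 genes, and all 10 were present in every library. RNA-seq had been performed on renal cortex of 6 C57BL/6 mice that had all eaten the same diet for 8 weeks, labelled HF/HC/HS/BA and high in fat, in cholesterol and in bile salt. The food of 3 mice also held tofogliflozin, which blocks the glucose transporter SGLT2, and the 3 without it served as controls. The labels name no other genotype, allele or agent and give neither the sex nor the age of the mice, and standard-diet mice were not analysed here. Values are FPKM, a level scaled to transcript length and library size. A trend with transcript length that differed between libraries remained in these values and is described below, so comparisons between genes of different length are approximate.

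Megalin (Lrp2) and cubilin (Cubn) are giant receptors of the apical membrane of the proximal tubule that retrieve albumin, vitamin-binding proteins, hormones and many other filtered proteins from the forming urine. Cubilin has no membrane anchor of its own and reaches the surface in a complex with amnionless (Amn). Receptors and cargo enter through clathrin-coated pits, cargo is released in acidifying endosomes and passed to lysosomes, and the receptors return to the surface through recycling vesicles. Loss of megalin, cubilin, amnionless, the chloride/proton exchanger ClC-5 (Clcn5) or the phosphoinositide phosphatase OCRL causes low-molecular-weight or albumin-containing proteinuria.

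None of the 10 genes passed the test for a change with tofogliflozin. With limma, Benjamini-Hochberg adjusted p values of the 10 genes lay between 0.344 and 0.957, and 0.253% of the 12248 genes tested passed the threshold of 0.05 (0.196% higher and 0.0572% lower). All 10 passed the filter of at least 1 FPKM in at least 3 libraries. All 10 of the 95% intervals lay within 0.5 of zero on the log2 scale, and the bound farthest from zero was 0.46, for Fcgrt. As fold changes the bounds reached from 0.764 for Lrp2 to 1.37 for Fcgrt, so changes of that size were not excluded. Of the 10 changes, 6 were above zero and 4 below, with a median of 0.02, and over all genes tested 49.7% were above zero, with a median of -0.00076. Clcn5, which was lower, was the 1 gene with an unadjusted limma p below 0.05, where 13.1% of all genes tested had one (6.7% higher and 6.39% lower). In 3 of the 10 genes the tofogliflozin libraries lay wholly on one side of the diet libraries, 2 higher and 1 lower. They did so in 18.5% of all genes tested (9.63% higher and 8.86% lower). The limma p values set the group difference against the spread between mice within the groups, moderated over all genes tested. The labels do not say how the mice were housed or handled, and the p values do not cover differences of that kind between the groups.

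**Figure D1:**
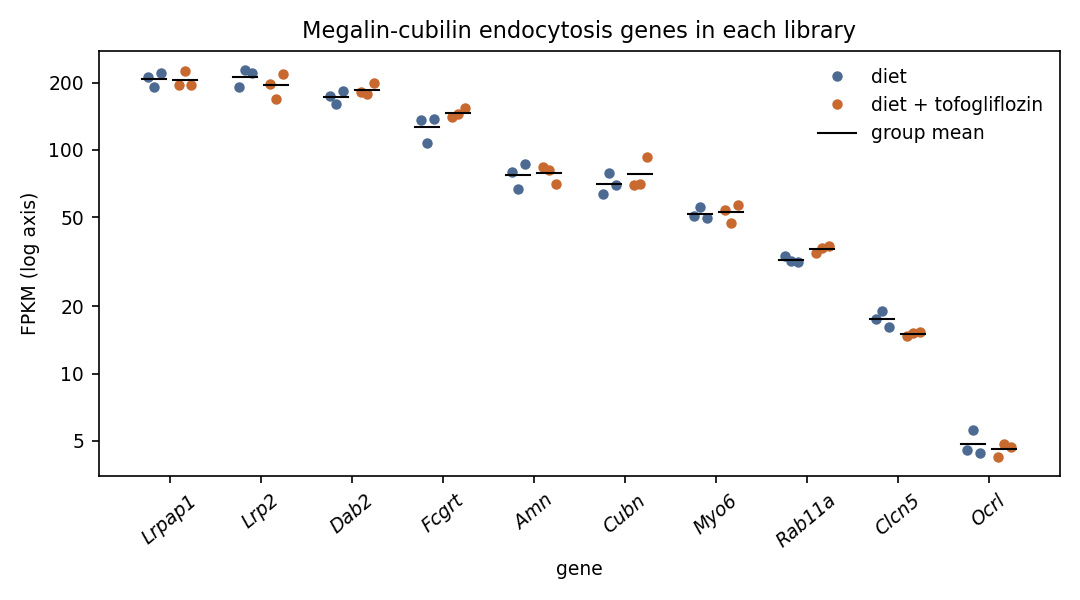
FPKM of the 10 genes in each library, on a log axis, with genes ordered by their mean; points are single libraries and bars are means of 3 mice. The levels span from 4.24 FPKM for Ocrl to 228 FPKM for Lrp2, and in 7 of the 10 genes the libraries of the diet and tofogliflozin groups overlap.

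The libraries held about 7640000 to 9890000 fragments, estimated from the spacing of the lowest values, and tofogliflozin replicate 1 was the deepest. At that depth the 15460-base longest transcript of Lrp2 rested on roughly 20000 to 30000 fragments per library, and Ocrl on roughly 180 to 230. Correlations of log2 values between any 2 libraries lay between 0.980 and 0.990 over the genes tested. Slc34a1, the sodium-phosphate cotransporter that marks the proximal tubule, was at 2128 to 2645 FPKM, which places the labelled tissue. Bulk RNA cannot tell fewer cells of a type from less RNA per cell.

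The order of the mean levels was Lrpap1, Lrp2, Dab2, Fcgrt, Amn, Cubn, Myo6, Rab11a, Clcn5 and Ocrl. Over the 6 libraries Lrpap1 averaged 207 ± 14.4 FPKM (mean ± SD, n = 6), Lrp2 204 ± 22.1 and Dab2 179 ± 12.3, and the libraries of each overlapped those of its neighbour in this order. Fcgrt followed at 137 ± 15.8 FPKM, below every Dab2 value. Amn at 78.2 ± 7.82 and Cubn at 74.3 ± 10.6 FPKM overlapped. Myo6 at 52.3 ± 3.8, Rab11a at 34.3 ± 2.33, Clcn5 at 16.3 ± 1.63 and Ocrl at 4.72 ± 0.481 FPKM were each apart from both neighbours. Lrp2 thus stood at the 96.0th percentile of the genes tested by mean level and Ocrl at the 27.6th. The coefficient of variation over the 6 libraries ran from 6.79% for Rab11a to 14.2% for Cubn.

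Of the receptors, megalin was examined first. Lrp2 measured 191, 228 and 220.4 FPKM on the diet alone and 197, 169.8 and 218 FPKM under tofogliflozin. The groups overlapped, with the lowest value in tofogliflozin replicate 2 and the highest in diet replicate 2. The means were 213 ± 19.5 and 195 ± 24.4 FPKM (SD, n = 3 each). The log2 change was -0.13 (95% interval -0.39 to 0.13; limma adjusted p = 0.670). Its value was -0.04 without tofogliflozin replicate 2 and -0.22 without tofogliflozin replicate 3.

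Cubn measured 63.4, 79.0 and 69.5 FPKM on the diet alone and 69.9, 70.6 and 93.3 FPKM under tofogliflozin. Tofogliflozin replicate 3 was the highest of the 6, and the other tofogliflozin libraries lay among the diet libraries. The log2 change was 0.13 (95% interval -0.16 to 0.43; limma adjusted p = 0.714), and without tofogliflozin replicate 3 it was -0.0013 (limma adjusted p = 0.998). Exons of Cubn overlap a non-coding gene on the opposite strand, Gm13270. The library kit keeps strand but its use in counting is not stated, so part of the Cubn value could come from that gene.

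Amn, the membrane anchor of cubilin, measured 79.8, 66.7 and 86.5 FPKM on the diet alone and 84.2, 81.4 and 70.7 FPKM under tofogliflozin. Its low values, in diet replicate 2 and tofogliflozin replicate 3, fell in 1 library of each group. The log2 change was 0.02 (95% interval -0.23 to 0.28; limma adjusted p = 0.950).

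Ratios of genes within a library do not depend on how libraries were scaled. The Cubn to Lrp2 ratio was 0.332, 0.347 and 0.315 in the diet libraries and 0.355, 0.416 and 0.427 with tofogliflozin. All 3 tofogliflozin libraries lay above all 3 diet libraries, tofogliflozin replicate 1 by a small margin. The group means were 0.331 ± 0.0159 and 0.3996 ± 0.0386 (SD, n = 3 each), a difference of 0.27 in the mean log2 ratio. An exact two-sided permutation test gave p = 0.10, the smallest value that 3 against 3 libraries can give, so the design cannot reach 0.05. The difference lay between 0.22 and 0.35 when each library was left out. When a trend with transcript length was taken out of each library it was 0.26 and the exact permutation p was 0.2.

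The Amn to Cubn ratio was 1.26, 0.845 and 1.25 in the diet libraries and 1.21, 1.15 and 0.758 with tofogliflozin. The low values again came from diet replicate 2 and tofogliflozin replicate 3, and the groups overlapped. The means were 1.12 ± 0.235 and 1.04 ± 0.244 (SD, n = 3 each; exact two-sided permutation p = 0.5). These were the 2 ratios compared.

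**Figure D2:**
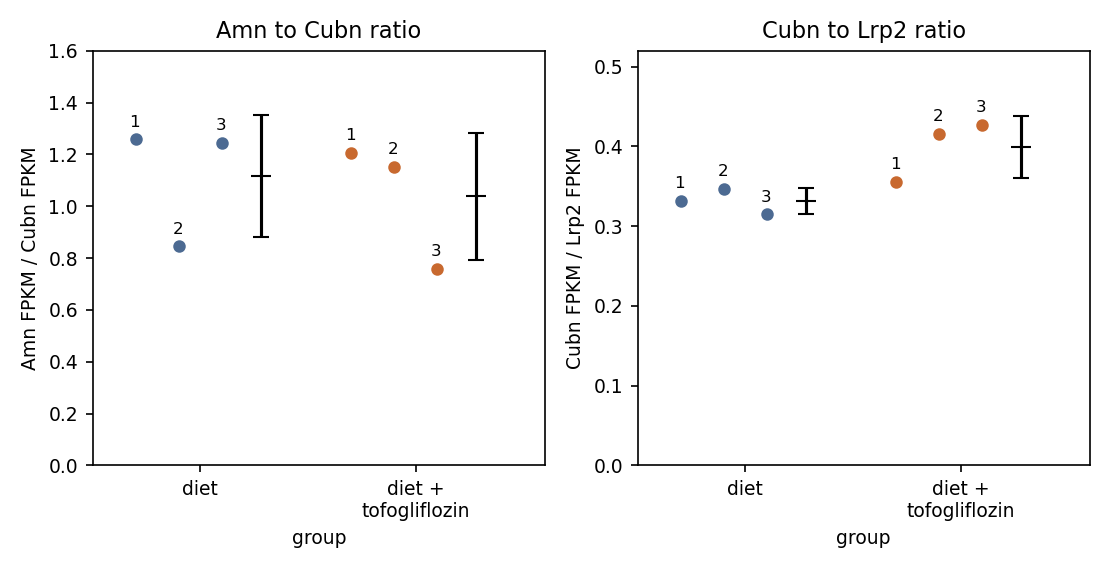
Ratio of Amn to Cubn (left) and of Cubn to Lrp2 (right), as FPKM over FPKM, in each library; numbers are replicate numbers and the bar beside each group is its mean ± SD of 3 mice. The Cubn to Lrp2 ratio is 0.315 to 0.347 on the diet and 0.355 to 0.427 with tofogliflozin, while the Amn to Cubn ratios of the groups overlap.

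Both receptor genes lie on the minus strand of chromosome 2 in GRCm38 (mm10). Lrp2 spans 69424340 to 69586065, and its longest transcript has 79 exons, while Cubn spans 13276338 to 13491813 and its longest transcript, of 11262 bases, has 67 exons. Because these receptors work as a pair, the stretches upstream of their RefSeq start sites are shown side by side. They run from base -250 to base -51 on the gene's own strand. The bases just downstream of the Lrp2 start were found in a GENCODE transcript of that gene. Those of Cubn were in none of its GENCODE transcripts, so the window shown for Cubn may not be its proximal promoter. Capitals mark the GC box GGGCGG, the letters bound by Sp1-type factors; both strands were searched.

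Lrp2, chr2:69586080-69586279: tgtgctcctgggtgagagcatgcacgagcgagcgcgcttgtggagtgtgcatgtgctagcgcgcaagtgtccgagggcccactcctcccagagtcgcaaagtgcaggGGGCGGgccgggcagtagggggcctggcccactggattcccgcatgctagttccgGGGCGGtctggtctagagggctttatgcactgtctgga

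Cubn, chr2:13491927-13492126: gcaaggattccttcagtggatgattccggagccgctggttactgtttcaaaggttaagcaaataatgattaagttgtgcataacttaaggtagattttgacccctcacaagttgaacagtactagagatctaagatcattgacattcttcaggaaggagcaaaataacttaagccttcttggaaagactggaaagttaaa

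The 200-base windows differ in composition. That of Lrp2 has 65% G and C, 13 CG dinucleotides and 2 GC boxes, and that of Cubn has 38.5% G and C, 2 CG dinucleotides and no GC box. Among 27025 RefSeq promoters the median of the same window was 51.5% G and C, and 24.5% held a GC box on either strand. The half-site AGGTCA of nuclear receptors (in 11.2% of promoters) and the E-box CACGTG (4.35%) were in neither window, which says only that those letters are not there.

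Among the proteins that work with the receptors, Dab2, the clathrin adaptor that binds megalin's tail, measured 175, 160.5 and 183 FPKM on the diet alone and 181, 178 and 198.6 FPKM under tofogliflozin. The highest value was in tofogliflozin replicate 3 and the lowest in diet replicate 2, and the groups overlapped. Its log2 change was 0.11 (95% interval -0.08 to 0.29; limma adjusted p = 0.632), and 0.0534 without diet replicate 2 or 0.0567 without tofogliflozin replicate 3. Lrpap1, the chaperone RAP that keeps megalin and its relatives free of ligand in the endoplasmic reticulum, was at 211, 192 and 220.4 FPKM against 195, 226 and 196 FPKM. Its change was the nearest to zero of the 10, at -0.02 on the log2 scale (95% interval -0.22 to 0.19; limma adjusted p = 0.957). Myo6, the myosin that carries endocytic vesicles inwards along actin, was at 50.7, 55.6 and 49.5 FPKM against 54.0, 47.2 and 57.0 FPKM, with a log2 change of 0.02 (95% interval -0.19 to 0.22). An exonic overlap of Dab2 with a processed pseudogene on the opposite strand, Gm18888, is annotated, and Lrpap1 and Myo6 have no exonic overlap with another gene.

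Clcn5 and Ocrl act on the endosome itself. ClC-5 helps endosomes to acidify, and OCRL removes a phosphate from membrane phosphoinositides so that vesicles can uncoat and mature. Clcn5 measured 17.5, 19.0 and 16.1 FPKM on the diet alone and 14.7, 15.2 and 15.4 FPKM under tofogliflozin, so every tofogliflozin library lay below every diet library. The means were 17.5 ± 1.46 and 15.1 ± 0.36 FPKM (SD, n = 3 each). The log2 change was -0.20 (95% interval -0.38 to -0.01; limma adjusted p = 0.344), and lay between -0.26 and -0.14 when each library was left out. Ocrl was at 4.54, 5.61 and 4.41 FPKM against 4.24, 4.83 and 4.68 FPKM. The highest Ocrl value was in diet replicate 2, and without that library the log2 change went from -0.06 (95% interval -0.31 to 0.18) to 0.03. Both genes lie on chromosome X, Clcn5 from 7153810 to 7319358 on the minus strand and Ocrl from 47912387 to 47965868 on the plus strand.

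Fcgrt and Rab11a serve the return of cargo and receptors. Fcgrt encodes the heavy chain of FcRn, the receptor that spares albumin and immunoglobulin G from lysosomal breakdown. It measured 136, 107 and 138 FPKM on the diet alone and 140.1, 145 and 154 FPKM under tofogliflozin. The groups did not overlap, but the gap between diet replicate 3 and tofogliflozin replicate 1 was small and diet replicate 2 was far below the rest. The log2 change was 0.21 (95% interval -0.04 to 0.46; limma adjusted p = 0.451), and 0.09 without diet replicate 2. Rab11a encodes the GTPase of the recycling endosome. It was at 33.6, 32.0 and 31.5 FPKM against 34.7, 36.3 and 37.4 FPKM, again with no overlap. Its log2 change was 0.15 (95% interval -0.0016 to 0.31; limma adjusted p = 0.385), between 0.13 and 0.18 when each library was left out. A miRNA gene, Gm47308, is annotated within an exon of Rab11a.

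**Figure D3:**
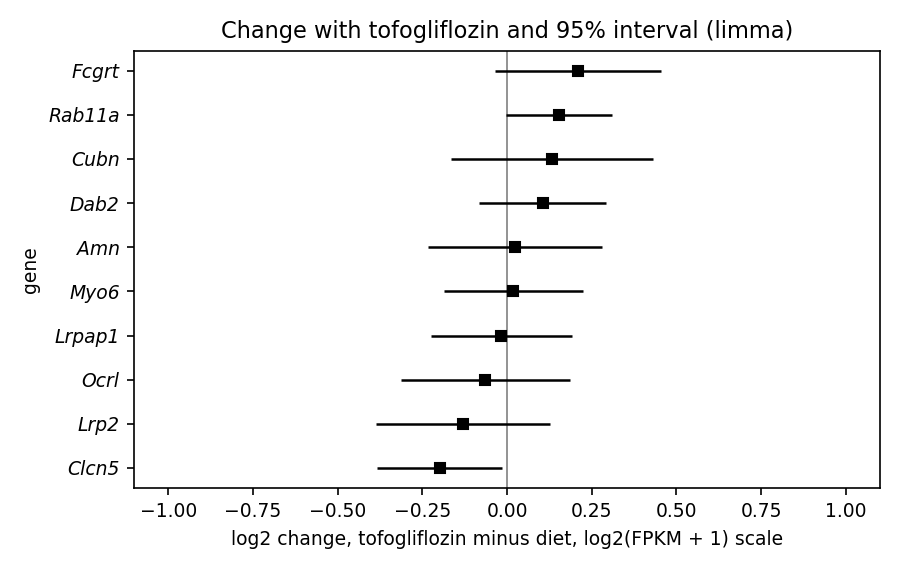
Log2 change of each of the 10 genes, tofogliflozin minus diet, with squares for limma's estimate from 3 mice per group and lines for its 95% interval. The squares run from -0.20 for Clcn5 to 0.21 for Fcgrt, and no interval reaches 0.5 in either direction.

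B2m, the light chain that pairs with Fcgrt, differed far more between mice than Fcgrt did. It measured 2369, 3112 and 612 FPKM on the diet alone and 1063, 1278 and 876 FPKM under tofogliflozin (limma adjusted p = 0.656). Fcgrt and Dab2 are also made by macrophages and endothelial cells. The summed level of 11 macrophage markers ran from 113 to 302 FPKM in the diet libraries and from 95.01 to 144 FPKM with tofogliflozin. The highest sum was in diet replicate 2, the library with the lowest Fcgrt and Dab2. Of the 8 macrophage markers tested 1 had a log2 change above zero, with a median of -0.43. The sum of 8 endothelial markers was 203 to 215 FPKM against 189 to 226 FPKM. None of these markers passed the adjusted threshold, and their part in the Fcgrt and Dab2 values was not tested.

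Markers of the proximal tubule, where megalin and cubilin are made, gave sums of 7065 to 8810 FPKM on the diet and 6853 to 8160 FPKM with tofogliflozin. Of these 10 markers 5 had a log2 change above zero and none passed. At an unadjusted limma p under 0.05, 2 were higher and 1 lower, where 13.1% of all genes tested had one. Markers of the straight part of the proximal tubule summed to 959.6 to 1111 FPKM on the diet and 748 to 906 FPKM with tofogliflozin, without overlap. Of the 6 straight-part markers 5 were below zero, 4 of them at an unadjusted limma p under 0.05, and none passed. Collecting duct markers summed to 220.2 to 265 FPKM against 299 to 354 FPKM, all 8 above zero and none past the threshold. Of these, 5 had an unadjusted limma p under 0.05. Distal convoluted tubule markers summed to 446 to 494 FPKM against 524 to 592 FPKM. All 5 of them were above zero, 2 at an unadjusted limma p under 0.05, and none passed. The part of these cell types in the values of the 10 genes was not tested.

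The 10 genes did not vary between libraries as a block. Transcript length separated them in some libraries. In diet replicate 2 all 5 genes with a longest transcript over 5000 bases (Lrp2, Cubn, Clcn5, Myo6 and Ocrl) were above their own mean over the 6 libraries, and none of the 5 shorter ones (Amn, Fcgrt, Rab11a, Lrpap1 and Dab2) was. The mean deviations in that library were 0.16 and -0.18 on the log2 scale. In diet replicate 1, diet replicate 3, tofogliflozin replicate 1 and tofogliflozin replicate 2, 1 of the 5 longer genes was above its own mean. In tofogliflozin replicate 3 it was 3 of the 5 longer and 3 of the 5 shorter genes.

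A trend with transcript length also ran through the whole table. In tofogliflozin replicate 3 the 5 shorter of the 10 genes did not follow it, with a mean deviation of 0.05. Among genes at 10 FPKM or more, the 174 with a longest transcript over 8000 bases had a median deviation of 0.11 in diet replicate 2 and 0.07 in tofogliflozin replicate 3, and of -0.03 to -0.07 in the other 4 libraries. The 1153 genes of up to 1500 bases had median deviations of -0.12 in diet replicate 2 and -0.04 in tofogliflozin replicate 3, and of 0.01 to 0.06 in the other libraries. These are the libraries with the low Amn to Cubn ratios. The source of the trend was not tested. With the trend taken out of each library, a step chosen after the data were seen, none of the 10 genes passed. The log2 changes were then -0.11 for Lrp2, 0.15 for Cubn, -0.18 for Clcn5, 0.20 for Fcgrt and 0.15 for Rab11a.

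**Figure D4:**
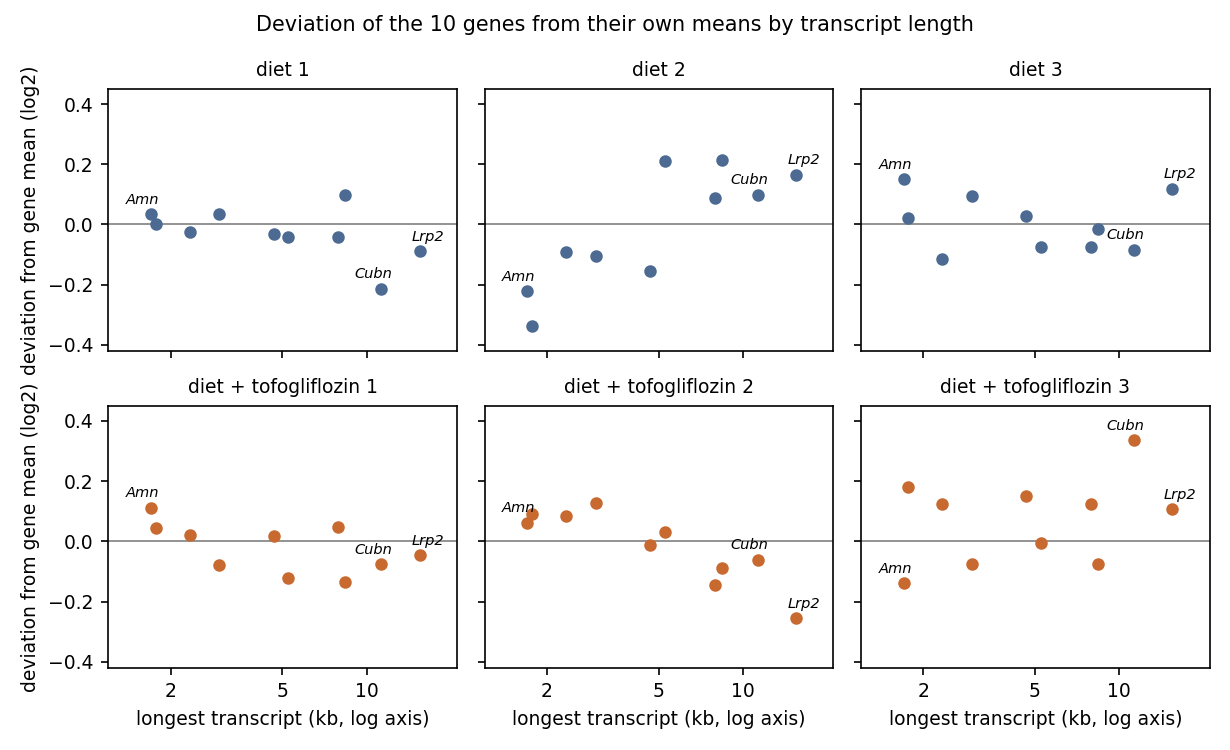
Deviation of each of the 10 genes from its own mean over the 6 libraries (log2 scale) against the length of its longest annotated transcript (kb, log axis), 1 panel per library, with Lrp2, Cubn and Amn named. In diet replicate 2 the 5 genes above 5000 bases lie above zero and the 5 shorter genes below it.

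The genes whose values followed those of Lrp2 most closely over the 6 libraries were Armc10, Wdfy3, Cdc40, Celsr2 and Pkhd1, out of 6312 genes at a mean of 10 FPKM or more. Likeness was the root-mean-square difference of log2 values after centring each gene, and ran from 0.0409 for Armc10 to 0.0600 for Pkhd1. Wdfy3, Celsr2 and Pkhd1 have longest transcripts of 14274, 10598 and 12935 bases, against 15460 bases for Lrp2. Those of Armc10 and Cdc40 have 2700 and 3534 bases. Wdfy3, a scaffold protein of selective autophagy, measured 17.5, 21.9 and 19.6 FPKM on the diet alone and 17.9, 15.3 and 19.0 FPKM under tofogliflozin. Of the other 9 endocytosis genes Myo6 was the most like Lrp2, at 0.106 and rank 136 of 6312, and Cubn was at 0.160 and rank 1418. With 6 libraries and 6312 genes, this likeness is a description only.

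The wider route was examined in 10 further lists with 171 distinct genes tested. None of the 171 passed over all genes tested, the smallest limma adjusted p being 0.0541. At an unadjusted limma p under 0.05 there were 21, or 12.3%, 11 of them higher and 10 lower, against 13.1% of all genes tested. Groups did not overlap in 28 of them, or 16.4%, against 18.5% of all genes tested.

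At the coat, 10 of 26 genes of clathrin coats and vesicle scission had a log2 change above zero (median -0.02) and 0 had an unadjusted p under 0.05. Cltb, a clathrin light chain, was at 63.0 ± 4.93 and 55.2 ± 3.43 FPKM (diet and tofogliflozin, mean ± SD, n = 3 each; limma adjusted p = 0.403). Of 13 receptor adaptors and partners 1 was above zero (median -0.06). That 1 was Synj2bp, and Hsp90b1, an endoplasmic reticulum chaperone, was at 262 ± 7.52 and 221 ± 23.4 FPKM (limma adjusted p = 0.288). Of 19 early endosome genes 13 were above zero (median 0.04), among them Appl2, an adaptor on early endosomes, at 18.1 ± 0.137 and 20.7 ± 1.51 FPKM (limma adjusted p = 0.363).

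Recycling endosome and retromer genes, the route on which Rab11a works, had 13 of 29 above zero (median -0.02). Of 4 tested genes for Rab11-binding proteins, the log2 changes were -0.02 for Rab11fip1, 0.09 for Rab11fip2, -0.25 for Rab11fip3 and -0.31 for Rab11fip5, and none passed. Rab11fip5 measured 39.5, 33.1 and 42.8 FPKM on the diet alone and 30.9, 32.5 and 28.6 FPKM under tofogliflozin (limma adjusted p = 0.252). Rab11fip3 was at 270.4, 236 and 283 FPKM against 227, 210.5 and 222 FPKM (limma adjusted p = 0.274). In the latter pair, each tofogliflozin library lay below each diet library. Rab11b, the close relative of Rab11a, was at 25.2 ± 0.956 and 27.5 ± 1.71 FPKM (limma adjusted p = 0.540).

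Of 14 genes of CLC exchangers and endosomal ion transport, 6 were above zero (median -0.04). Slc9a3, the apical sodium/proton exchanger NHE3, measured 38.8, 42.5 and 36.6 FPKM on the diet alone and 29.8, 28.9 and 33.0 FPKM under tofogliflozin, a log2 change of -0.35 (limma adjusted p = 0.153). Its groups were apart, as were those of Clcn5. The relatives of Clcn5 were at 34.1 ± 1.83 and 33.6 ± 1.34 FPKM for Clcn3, 29.8 ± 1.82 and 28.5 ± 0.195 FPKM for Clcn4-2, and 22.7 ± 2.22 and 19.6 ± 1.46 FPKM for the lysosomal Clcn7. Among 15 phosphoinositide phosphatase and kinase genes, 7 were above zero (median -0.06). Inpp5b, the close relative of Ocrl, stood at 38.1 ± 3.61 and 41.99 ± 3.52 FPKM (limma adjusted p = 0.582), above every Ocrl value.

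Of 12 other members of the LDL receptor family and their chaperone, 6 were above zero (median -0.03). Lrp4 averaged 4.71 ± 0.301 and 6.19 ± 0.844 FPKM (limma adjusted p = 0.253), and Lrp1, another giant receptor of the family, at 3.18 ± 0.659 and 2.68 ± 0.763 FPKM (limma adjusted p = 0.702). Lysosomal genes at the end of the route had 7 of 18 above zero (median -0.0042). Scarb2, which carries glucocerebrosidase to the lysosome, was at 14.7, 16.7 and 17.3 FPKM against 22.3, 21.4 and 22.1 FPKM, a log2 change of 0.41 (limma adjusted p = 0.0819).

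Genes of ligands that megalin and cubilin take up were measured here as RNA of the cortex, not as filtered protein. Of 13 tested, 9 were above zero (median 0.14). At an unadjusted limma p under 0.05, 4 were higher and 2 lower. Of all genes tested 13.1% had such a p, 6.7% higher and 6.39% lower. Alb, Mt1 and Mt2, the 3 of smallest p, were higher. The 2 lower genes, not named here, had log2 changes of -1.11 and -0.54. Alb, which encodes albumin, measured 3.37, 3.997 and 4.33 FPKM on the diet alone and 6.79, 6.72 and 8.42 FPKM under tofogliflozin. Its log2 change of 0.76 (limma adjusted p = 0.0541) was just short of the threshold. Mt1, a metallothionein, averaged 129 ± 9.37 and 194 ± 21.4 FPKM (limma adjusted p = 0.0682), and Mt2 at 50.5 ± 10.3 and 73.2 ± 5.29 FPKM (limma adjusted p = 0.168). Tcn2, the vitamin B12 carrier whose complex megalin takes up, was at 1011 ± 104 and 978 ± 65.2 FPKM (limma adjusted p = 0.901).

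Of 12 transcription factors tied to megalin or the proximal tubule, 5 were above zero (median -0.05). Hnf4a, a master factor of the proximal tubule, was at 279 ± 22.4 and 261 ± 19.0 FPKM (limma adjusted p = 0.713). Ybx3, a Y-box protein, was at 22.8 ± 1.06 and 26.0 ± 1.09 FPKM (limma adjusted p = 0.322).

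**Figure D5:**
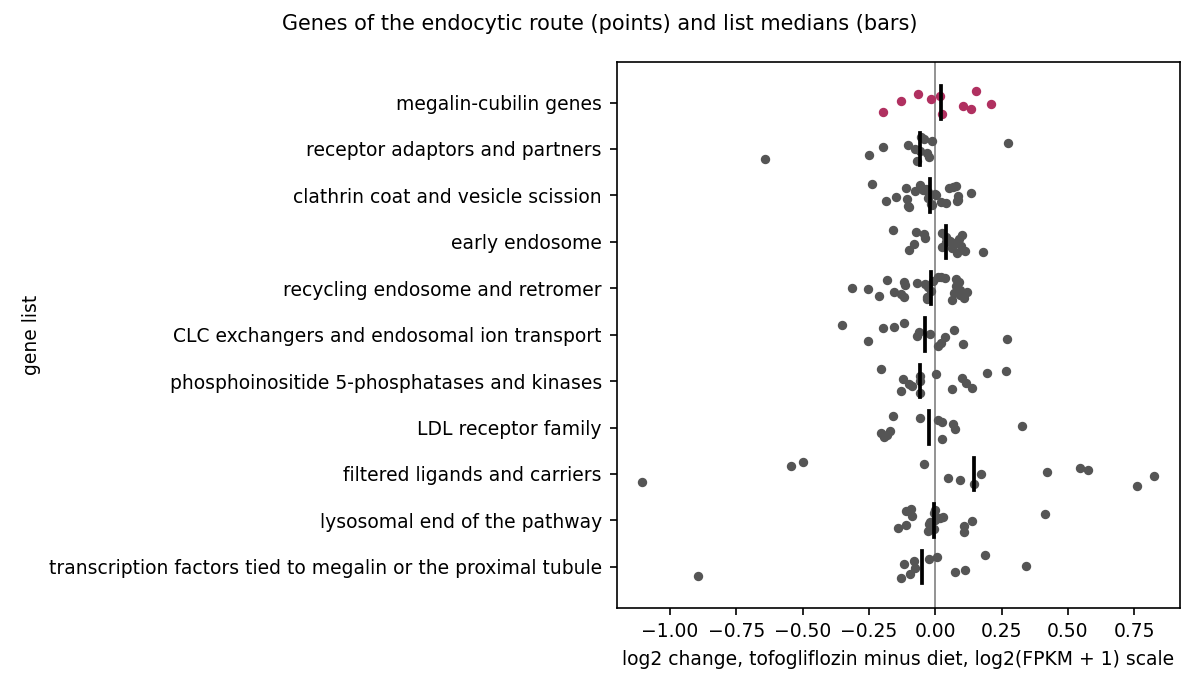
Log2 change, tofogliflozin minus diet, of each gene tested in the 10 further lists and of the 10 megalin-cubilin genes (top row); points are genes and bars are list medians. The list medians lie between -0.06 and 0.14, and no gene shown passed the adjusted threshold.

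In GRCm38, Amn spans 111271095 to 111276426 of chromosome 12 and Dab2 6299788 to 6440712 of chromosome 15, both on the plus strand. Lrpap1 spans 35091501 to 35105766 on the minus strand of chromosome 5 and Fcgrt 45092990 to 45103851 on the minus strand of chromosome 7. Rab11a, from 64715299 to 64737758 on the minus strand, and Myo6, from 80165031 to 80311729 on the plus strand, are both on chromosome 9. The deposited values are for whole genes and do not tell exons or transcripts apart.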

How the data were processed

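The authors deposited 1 table per library, with FPKM for each gene. Per the submitters' processing notes Cuffdiff 2.2.1, TopHat2 2.1.1, SAMtools 0.1.18 and Bowtie2 2.2.8 were used with build mm10. Not given in the sources used here are the role of each tool, the annotation, the strand setting and any scaling of libraries. Per the labels' protocols, libraries came from a stranded mRNA kit. The files hold no counts. Depth was estimated from low values, 92.6% of 1532 being within 2% of a whole multiple of their gene's step, with lengths of 264 single-transcript genes.

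Titles gave the groups and replicate numbers. The 12248 genes that reached 1 FPKM in 3 or more of the 6 libraries were put on the log2(FPKM + 1) scale, which understates the fold change of low genes. R 4.3.3 with limma 3.58.1 gave two-sided tests with a mean-variance trend. Their p values were adjusted by Benjamini-Hochberg over all 12248 genes, with a threshold of 0.05. The fit was tested on simulated data. Ratios were compared by exact permutation. Beside the 10 genes, up to 3 genes of smallest p per list were named, and any past the threshold. Some genes of the lists are not reported here by name, and the counts include them. Relatives and partners of the 10 genes (Rab11b, Clcn3, Clcn4-2, Clcn7, Inpp5b, Lrp1, B2m, Tcn2, Hnf4a, Rab11fip1, Rab11fip2) and Slc34a1 fall outside that rule and were chosen with their values known. The genes and lists were chosen with earlier results of these data known. Positions and lengths are from GENCODE M21 (GRCm38), and upstream sequences from RefSeq (GRCm38.p6), in which all 10 genes were found. Alternatives were pseudocount 0.1, no filter, a 5 FPKM filter, upper-quartile scaling, quantile normalization, each library left out, array weights, a robust or no mean-variance trend, a block for the replicate number and, chosen after seeing the data, removal of a length trend. Figures were drawn with matplotlib 3.10.9.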

Additional observations from a re-analysis of the deposited data

How the results depend on the processing

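None of the 10 genes passed the adjusted threshold under any of 16 other settings (0 in each), and the smallest limma adjusted p among them was 0.253, for Clcn5 without diet replicate 3. Clcn5, Dab2, Fcgrt, Rab11a and Lrp2 kept the sign of their change in all 16. The filters, the replicate block and the mean-variance trend options leave each estimate unchanged by construction, so they cannot test its sign. The number with an unadjusted p under 0.05 was 2 with no filter, upper-quartile scaling, quantile normalization or the length trend removed. It was 0 with no mean-variance trend, and 0 to 2 with a library left out. In the main fit it was 1, where 13.1% of all genes tested had one. No such share is given for the other settings, so these counts are no result about the 10 genes. The change of Lrpap1 was 0.0015 with quantile normalization, and that of Amn -0.0105 with array weights. With a library left out, changes lay between -0.0801 and 0.10 for Amn, -0.0013 and 0.22 for Cubn, -0.0849 and 0.0269 for Lrpap1, -0.0384 and 0.0954 for Myo6, and -0.12 and 0.0264 for Ocrl, and the Amn to Cubn log2 ratio difference between -0.30 and 0.10. Ocrl was not tested with the 5 FPKM filter. Over all genes the 31 calls became 1 with no filter, 20 with the 5 FPKM filter, 47 with upper-quartile scaling (74.5% higher, against 77.4%), 61 with a robust trend, 123 with array weights, and 2 (without tofogliflozin replicate 3) to 66 (without diet replicate 2) with a library left out. With the length trend removed, a setting chosen after seeing the data, there were 24, 91.7% of them higher. Leaving out diet replicate 3 gave 29 higher and 28 lower calls (50.9% higher), and leaving out diet replicate 2 gave 41 and 25 (62.1%), against 24 and 7 with all libraries. The cause was not tested.

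Both groups share replicate numbers 1 to 3. Same-numbered libraries had correlations of -0.0549, -0.0623 and 0.0514 between their deviations from the group means. Differently numbered libraries had correlations from -0.138 to 0.188. With 3 libraries per group these values cannot settle whether the numbers pair the samples. With the replicate block, 0 of the 10 genes had an unadjusted p under 0.05, and the Cubn to Lrp2 difference was 0.27 (exact sign-flip permutation p = 0.25, the smallest that 3 pairs can give). Depth limits Ocrl most, with the fewest estimated fragments of the 10 genes.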
